A study of Mus musculus with 8 samples.

Results

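Genes of the urea cycle and of amino acid metabolism were examined as one set of 37 members among 21883 protein-coding genes in maps of chromatin loops from mouse liver. The 37 genes came from a list that was chosen with earlier results of these data known. A loop was assigned to a gene when one of its anchors lay in the mm10 gene body or within 5 kb on either side. The libraries were made by in-situ ChIA-PET, in which crosslinked chromatin is cut and religated inside nuclei and then immunoprecipitated, so that a paired-end tag (PET) joining distant sequences records places that lay near each other at a bound protein. All 6 libraries used here came from liver and were pulled down with anti-HA beads against HA-tagged REV-ERBα, a nuclear receptor of the circadian clock. The first 2 came from REV-ERBa3HA/3HA knock-in mice given no virus, 1 library per time of day: zeitgeber time (ZT) 22 and ZT10. The other 4, all at ZT10, came from REV-ERBaf/fREV-ERBbf/f mice that had received AAV8-TBG-Cre together with either AAV8-TBG-3HA-REV-ERBa-WT (WT, 2 libraries) or AAV8-TBG-3HA-REV-ERBa-delhIDR (delhIDR, 2 libraries), the latter a form that by its name lacks a region called hIDR. The sample titles label these 4 libraries DKO, and WT names the construct, not the genotype of the mice. The TBG promoter directs expression to hepatocytes, so Cre and the tagged constructs were hepatocyte-directed. The knock-in tag, in contrast, sits on the mouse's own gene in any cell that expresses it. Age and sex of the mice were not given in the labels.

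The urea cycle turns ammonia, released when amino acids are broken down, into urea, and it runs almost wholly in hepatocytes. Around it stand aminotransferases that move amino groups between amino acids and keto acids, enzymes that degrade single amino acids such as tyrosine, tryptophan and histidine, and the methionine cycle, which makes the methyl donor S-adenosylmethionine and passes homocysteine on to cysteine. Many of these genes are expressed at high levels in liver and respond to feeding, fasting and hormones. REV-ERBα binds DNA elements built on the hexamer AGGTCA and recruits corepressors, and its protein is abundant late in the light phase, around ZT10, and scarce around ZT22.

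The ZT10 knock-in library stood apart from the other 5. It listed 57865 loops with 320427 PETs, against 31033 to 58102 loops and 104161 to 204018 PETs in the others. Its loops held 5.54 PETs each on average, against 3.27 to 3.83, and their median span was 40.1 kb, against 524 to 1071 kb. In 71.5% of its loops both anchors were at least 700 bp wide, against 0.669% to 11.7% elsewhere. Nr1d1, which encodes the tagged protein, had 265 PETs there and 0 to 5 in each other library. No library lists loops with fewer than 3 PETs. A value of 0 below therefore means that no loop was listed, and unlisted loops may still have had up to 2 PETs. Statements on ZT10 in the knock-in rest on this single library, and the values without it are those of the other 5.

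Loops at the 37 genes carried 2794 PETs in 388 loops at ZT10 in the knock-in, or 0.872% of all listed PETs (95% Clopper-Pearson interval 0.840% to 0.905%). At ZT22 they carried 202 PETs in 62 loops, or 0.152% (0.132% to 0.175%). In the WT libraries the set had 113 PETs in 34 loops (0.108%) and 196 PETs in 53 loops (0.0961%). In the delhIDR libraries it had 210 PETs in 62 loops (0.118%) and 128 PETs in 35 loops (0.0797%). The ZT10 knock-in value lay above all 5 others, whose shares ran from 0.0797% to 0.152%. These intervals cover counting error only, since PETs come from amplified DNA and each knock-in time had 1 library.

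**Figure D1:**
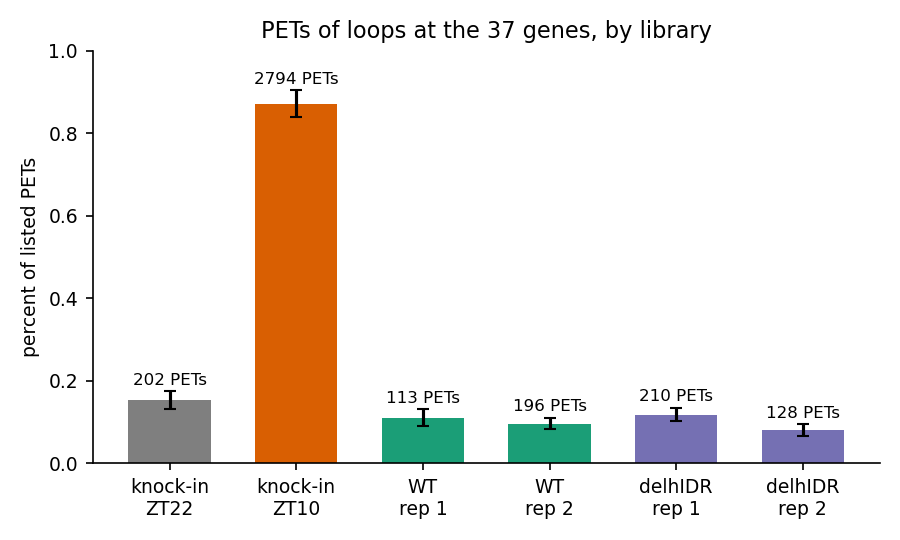
Percent of all listed PETs that fall in loops at the 37 genes, 1 bar per library, with exact 95% Clopper-Pearson intervals and the PET number above each bar. The ZT10 knock-in library stands at 0.872% and the 5 other libraries between 0.0797% and 0.152%.

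At ZT10 in the knock-in, 35 of the 37 genes had a listed PET, against 52.1% of all protein-coding genes, and 29 had at least 30 PETs, against 12.0% of all genes. The median was 55 PETs per member and 3 per gene over all genes. In the other libraries 19 to 28 members (51.4% to 75.7%) had a PET, against 49.7% to 63.5% of all genes. The members' share was the lower in WT replicate 2 (59.5% against 63.5%) and delhIDR replicate 2 (51.4% against 56.7%). No member had 30 PETs there, against 2.17% to 5.64% of all genes. Serine dehydratase (Sds) and its paralog Sdsl were the members with no listed PET at ZT10. Few PETs lay close to the edge of the window. At 4 to 5 kb from the gene, 21 loops with 79 PETs reached the members only there. A further 12 loops with 56 PETs lay just outside, at 5 to 6 kb. Larger changes of the window moved the set's ZT10 total from 2794 PETs to 2037 with the gene body alone and to 3778 with 25 kb on either side.

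Promoter sequence was available from RefSeq for 27 members, and the transcription start lay under a ZT10 anchor for 22 of them. The sequence is shown for 6 of these, picked without a fixed rule, so the 6 do not stand for the rest. The lines give the 250 bases before the start, 5′ to 3′ in the direction of the gene, from GRCm38.p6, the build that mm10 names. Capitals mark AGGTCA or GGGTCA, or their reverse complements TGACCT and TGACCC. Bhmt is chr13:93637759-93638008 (minus strand), Bhmt2 chr13:93674303-93674552 (minus), Haao chr17:83846791-83847040 (minus), Glul chr1:153899679-153899928 (plus), Tdo2 chr3:81975729-81975978 (minus) and Hal chr10:93488518-93488767 (plus).
Bhmt: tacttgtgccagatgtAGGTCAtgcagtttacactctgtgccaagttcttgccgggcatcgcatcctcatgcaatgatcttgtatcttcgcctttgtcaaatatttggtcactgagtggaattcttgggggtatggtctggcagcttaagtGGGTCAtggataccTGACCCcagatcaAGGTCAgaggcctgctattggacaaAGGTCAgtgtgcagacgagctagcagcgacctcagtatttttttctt
Bhmt2: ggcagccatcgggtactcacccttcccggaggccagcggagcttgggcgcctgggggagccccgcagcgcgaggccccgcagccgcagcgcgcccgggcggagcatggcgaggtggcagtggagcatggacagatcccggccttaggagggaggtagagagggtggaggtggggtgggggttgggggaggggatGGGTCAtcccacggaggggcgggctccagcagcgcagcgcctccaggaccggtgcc
Haao: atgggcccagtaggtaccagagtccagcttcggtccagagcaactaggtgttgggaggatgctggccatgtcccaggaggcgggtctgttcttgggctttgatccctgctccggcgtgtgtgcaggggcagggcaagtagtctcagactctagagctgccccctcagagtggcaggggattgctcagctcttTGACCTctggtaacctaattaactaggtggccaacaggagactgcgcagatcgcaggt
Glul: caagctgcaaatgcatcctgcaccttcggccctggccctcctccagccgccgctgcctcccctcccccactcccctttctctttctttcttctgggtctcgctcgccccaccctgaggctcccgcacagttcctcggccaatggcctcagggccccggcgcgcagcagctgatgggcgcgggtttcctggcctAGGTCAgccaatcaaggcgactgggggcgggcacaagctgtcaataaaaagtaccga
Tdo2: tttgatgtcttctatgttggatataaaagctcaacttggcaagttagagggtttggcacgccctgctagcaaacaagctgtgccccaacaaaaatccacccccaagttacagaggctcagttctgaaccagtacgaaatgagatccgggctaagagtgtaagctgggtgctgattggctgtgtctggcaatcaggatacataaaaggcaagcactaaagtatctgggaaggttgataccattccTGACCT
Hal: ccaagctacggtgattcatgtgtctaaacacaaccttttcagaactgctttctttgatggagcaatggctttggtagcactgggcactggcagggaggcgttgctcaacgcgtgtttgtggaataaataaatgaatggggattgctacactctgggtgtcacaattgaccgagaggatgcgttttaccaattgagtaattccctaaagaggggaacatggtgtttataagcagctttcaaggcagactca
Loops with an anchor over these starts held 296 PETs at Bhmt, 81 at Bhmt2, 55 at Haao, 40 at Glul, 26 at Tdo2 and 108 at Hal. The Bhmt window held 5 matches, with first bases at -234, -99, -85, -72 and -47 from the start, and Bhmt2, Haao, Glul and Tdo2 held 1 each, at -56, -58, -57 and -6. The Hal window held none of these letters. Nor did those of Cbs, Kmo and Agxt, not shown, where loops over the start held 37, 35 and 30 PETs.

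Over the full windows of 250 bases before to 50 after the start, searched on both strands, AGGTCA occurred in 12 of 27 member promoters (44.4%) and in 14.7% of 21262 protein-coding promoters. GGGTCA occurred in 8 (29.6%), against 13.7%. TAGGTCA, which contains AGGTCA, occurred in Bhmt, Glul and Tdo2, against 2.32% of promoters. With AA and 1 further base of any kind required ahead of TAGGTCA, no member promoter matched and 0.155% of all did. With the same bases required ahead of TGGGTCA, Bhmt was the 1 member that matched, against 0.160% of all. AGGTCA repeated after a gap of 2 bases occurred in no promoter of either set. AGGTCA is shared by many nuclear receptors, and these matches describe the letters only.

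The methionine cycle and transsulfuration genes held the most PETs of the 6 role groups at ZT10, with 1090 PETs in 140 loops (0.340% of listed PETs), against 32 PETs in 10 loops at ZT22 (0.0241%). All 7 of its genes had at least 58 PETs at ZT10. Bhmt, betaine-homocysteine methyltransferase, which remethylates homocysteine with betaine, had 14 PETs at ZT22 and 360 at ZT10 in the knock-in, 4 and 8 in the WT libraries, and 14 and 9 in the delhIDR libraries. Its share was 3.36 higher at ZT10 than at ZT22 on the log2 scale (95% interval 2.65 to 4.30). Bhmt2, the neighbouring gene that uses S-methylmethionine as methyl donor, had 3 PETs at ZT22 and 250 at ZT10, 0 and 0 in WT, and 3 and 0 in delhIDR. Mat1a, the liver methionine adenosyltransferase, had 3 at ZT22 and 319 at ZT10, 3 and 0 in WT, and 3 and 7 in delhIDR. For these genes the ZT10 knock-in library was high and the other 5 were low, and the log2 share ratio of ZT10 over ZT22 was 4.89 (3.55 to 7.40) for Bhmt2 and 5.24 (3.90 to 7.75) for Mat1a.

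The strongest loop at any member lay at Bhmt, with 103 PETs joining an anchor over its 5′ end (chr13:93636161-93641044) to chr13:93646791-93649812, between Bhmt and Bhmt2 and outside both windows. A second loop with 76 PETs joined the Bhmt 5′ end (chr13:93635414-93640968) to the 3′ end of Bhmt2 (chr13:93652324-93655270). Another loop, with 43 PETs, reached chr13:93709203-93714009 at Dmgdh, dimethylglycine dehydrogenase, which acts on the product of the betaine reaction. After overlapping anchors were merged, the Bhmt 5′ anchor (chr13:93635414-93641044) took part in 20 loops with 325 PETs. Loops that touched both Bhmt and Bhmt2 numbered 8, with 117 PETs, and no other pair of members shared a ZT10 loop. The PETs of these neighbours are thus partly the same: 155 of the 250 Bhmt2 PETs also counted for Dmgdh.

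Mat1a had its strongest loop, of 82 PETs, between its low-coordinate end (chr14:41101122-41108614) and chr14:41158695-41163449 at Mbl1, a mannose-binding lectin gene. Of its 319 PETs, 172 also counted for Mbl1. The anchor at chr14:41101122-41108614 took part in 22 loops with 224 PETs, the most loops of any member anchor. Cbs, cystathionine beta-synthase, which joins homocysteine to serine, had 3 PETs at ZT22, 78 at ZT10, 0 and 0 in WT, and 0 and 3 in delhIDR, for a log2 ratio of 3.22 (1.83 to 5.74). Its strongest loop joined its 5′ end (chr17:31636576-31638875) to chr17:31652769-31656845 at U2af1 with 19 PETs. Gnmt, which uses up S-adenosylmethionine to methylate glycine, had 58 PETs at ZT10 and none listed at ZT22. Ahcy, which hydrolyses S-adenosylhomocysteine, and Cth, which releases cysteine from cystathionine, each had 71 PETs at ZT10 and 6 at ZT22.

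**Figure D2:**
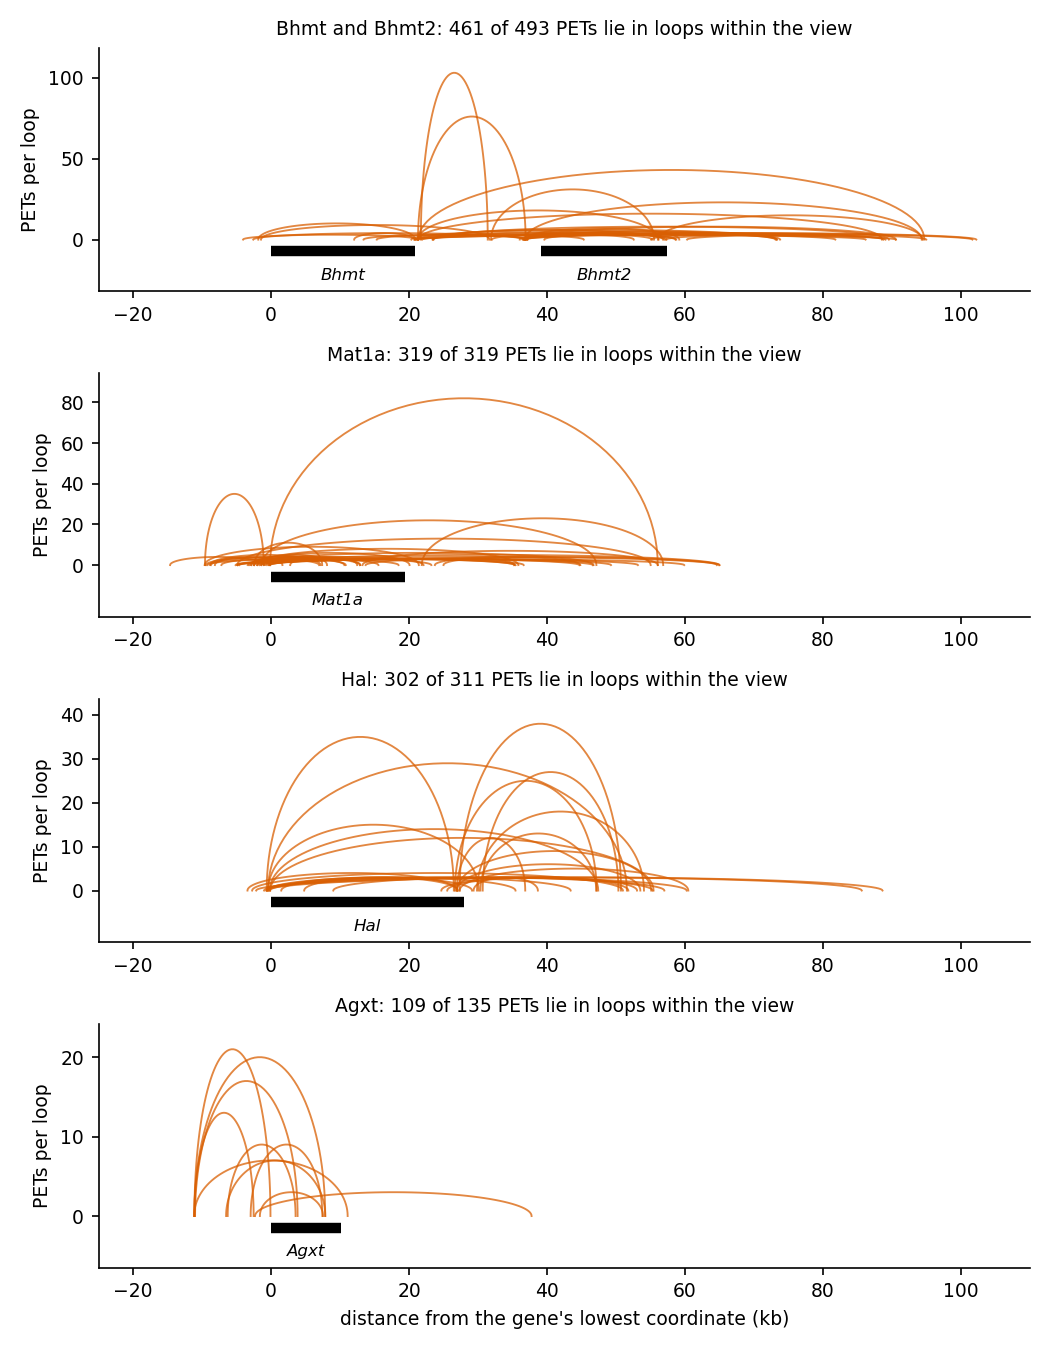
Loops at Bhmt with Bhmt2, Mat1a, Hal and Agxt in the ZT10 knock-in library. Each arc joins the centres of a loop's anchors and its height is the loop's PETs on a linear axis, the horizontal axis is the distance in kb from the gene's lowest coordinate, and black bars are gene bodies. The tallest arcs have 103 PETs at Bhmt, 82 at Mat1a, 38 at Hal and 21 at Agxt.

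The genes for breakdown of serine, proline, histidine and leucine had 372 PETs in 43 loops at ZT10 (0.116%) and 33 in 10 loops at ZT22 (0.0249%). At ZT10 most of these PETs lay at Hal, histidine ammonia-lyase, the first enzyme of histidine degradation. Hal had 13 PETs at ZT22 and 311 at ZT10, 9 and 13 in WT, and 10 and 14 in delhIDR, and its log2 ratio of ZT10 over ZT22 was 3.26 (2.51 to 4.23). Its strongest loop, of 38 PETs, joined its 3′ end (chr10:93514902-93517315) to chr10:93537936-93541063 at Amdhd1 and Ccdc38, and a loop of 35 PETs joined its own 5′ and 3′ ends (chr10:93486057-93490200 and chr10:93513565-93516964). Amdhd1 encodes a later enzyme of the same histidine pathway, and 243 of the 311 Hal PETs also counted for it. Uroc1, urocanase, the enzyme after Hal, lies on chromosome 6 and had 32 PETs at ZT10 and none listed at ZT22. The others of the group were low: Prodh had 18 PETs at ZT10 and 0 at ZT22, Prodh2 7 and 3, Ivd 4 and 11, Sdsl 0 and 6, and Sds 0 in both. Ivd, isovaleryl-CoA dehydrogenase of leucine breakdown, and Sdsl were the members with fewer PETs at ZT10 than at ZT22, both with under 30 PETs in all.

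The tyrosine and tryptophan group had 517 PETs in 86 loops at ZT10 (0.161%) and 48 in 15 loops at ZT22 (0.0362%), and each of its 8 genes had between 30 and 96 PETs at ZT10. Tdo2, tryptophan 2,3-dioxygenase, which opens the tryptophan ring, had 6 PETs at ZT22 and 96 at ZT10, 0 and 0 in WT, and 6 and 0 in delhIDR, for a log2 ratio of 2.62 (1.55 to 4.21). Its strongest loop joined the 5′ end (chr3:81969848-81974767) to chr3:81981733-81984635 at Asic5 with 18 PETs. Kynu, kynureninase, had 21 PETs at ZT22 and 95 at ZT10, 7 and 19 in WT, and 17 and 16 in delhIDR, for a log2 ratio of 0.88 (0.21 to 1.66). It stood out in the group by its ZT22 value, and 50 of its 95 PETs at ZT10 lay in a single loop from chr2:43468217-43471610 to its low-coordinate end (chr2:43554157-43559025), which ZT22 also listed with 4 PETs. Haao, which makes the precursor of quinolinate, had 40 of its 62 PETs in a loop between its body and its 5′ end (chr17:83833819-83837552 and chr17:83843402-83847953), over the promoter shown above. Of the tyrosine enzymes, Tat, the first step, had 71 PETs at ZT10 and 9 at ZT22, Hgd 68 and 6, Fah, the last step, 40 and 0, and Hpd 30 and 0. Kmo, of the kynurenine branch, had 55 and 3.

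The 6 aminotransferases had 397 PETs in 56 loops at ZT10 (0.124%) and 32 in 10 loops at ZT22 (0.0241%). Agxt, which removes glyoxylate by transamination with alanine, had 6 PETs at ZT22 and 135 at ZT10 and no listed PET in any of the 4 AAV libraries, for a log2 ratio of 3.11 (2.06 to 4.69). Its strongest loops ran from an anchor upstream of the gene, outside the window, at chr1:93123199-93125039, to its 5′ end (chr1:93134428-93135874) with 21 PETs. From nearly the same anchor, chr1:93123379-93124832, a loop of 20 PETs reached its 3′ end (chr1:93141511-93144658). Got2, the mitochondrial aspartate aminotransferase, had 16 PETs at ZT22 and 80 at ZT10, 0 and 0 in WT, and 18 and 6 in delhIDR, for a log2 ratio of 1.01 (0.26 to 1.92). Its strongest loop joined the 5′ end (chr8:95884123-95887871) to chr8:95852265-95854507 at Slc38a7, a glutamine transporter gene, with 29 PETs. The cytosolic aspartate enzyme Got1 had 28 PETs at ZT10 and 0 at ZT22, the alanine aminotransferases Gpt and Gpt2 had 44 and 62 at ZT10 and 3 and 7 at ZT22, and Oat, ornithine aminotransferase, had 48 and 0.

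The urea cycle itself had 218 PETs in 40 loops at ZT10 (0.0680%) and 43 in 14 loops at ZT22 (0.0324%). Cps1, carbamoyl-phosphate synthetase, the entry step, had 25 PETs at ZT22 and 52 at ZT10, 6 and 25 in WT, and 6 and 6 in delhIDR. Its log2 ratio of -0.23 had an interval that included 0 (-0.93 to 0.53), and its ZT22 value was the highest of the 37 members. The direction for Cps1 depended on the window: the ratio was 1.67 with 25 kb on either side, 1.66 with only 5 kb around each gene end, and -1.21 with the gene body alone. Otc, which joins carbamoyl phosphate to ornithine, had 38 PETs at ZT10 and 6 at ZT22, Ass1, which condenses citrulline with aspartate, 30 and 3, Asl, which splits argininosuccinate, 47 and 6, and Arg1, which releases urea, 39 and 3. Nags, whose product activates Cps1, had 12 and 0. The strongest urea cycle loop at ZT10 had 26 PETs and joined one end of Asl (chr5:130020829-130024939) to chr5:130030353-130035559, and the strongest at Arg1 had 23 PETs (chr10:24925376-24928129 to chr10:24946807-24950383).

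The 3 genes of glutamine and glutamate metabolism had 200 PETs in 23 loops at ZT10 (0.0624%) and 14 in 3 loops at ZT22 (0.0105%). Glud1, glutamate dehydrogenase, which releases ammonia from glutamate, had 5 PETs at ZT22 and 131 at ZT10, 3 and 0 in WT, and 13 and 4 in delhIDR, for a log2 ratio of 3.31 (2.18 to 5.09). Its strongest loop had 73 PETs and joined an anchor at its 3′ end (chr14:34345286-34352132) to chr14:34357143-34360800, and both of these anchors also lay in the window of Fam25c, with which Glud1 shared 113 PETs. Only 7 Glud1 PETs had an anchor within 2 kb of its 5′ end, against 107 at its 3′ end. Glul, glutamine synthetase, had 57 PETs at ZT10 and 6 at ZT22, and 22 of them joined the promoter shown above (chr1:153899635-153902904) to chr1:153985846-153990175. Gls2, liver glutaminase, had 12 and 3.

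**Figure D3:**
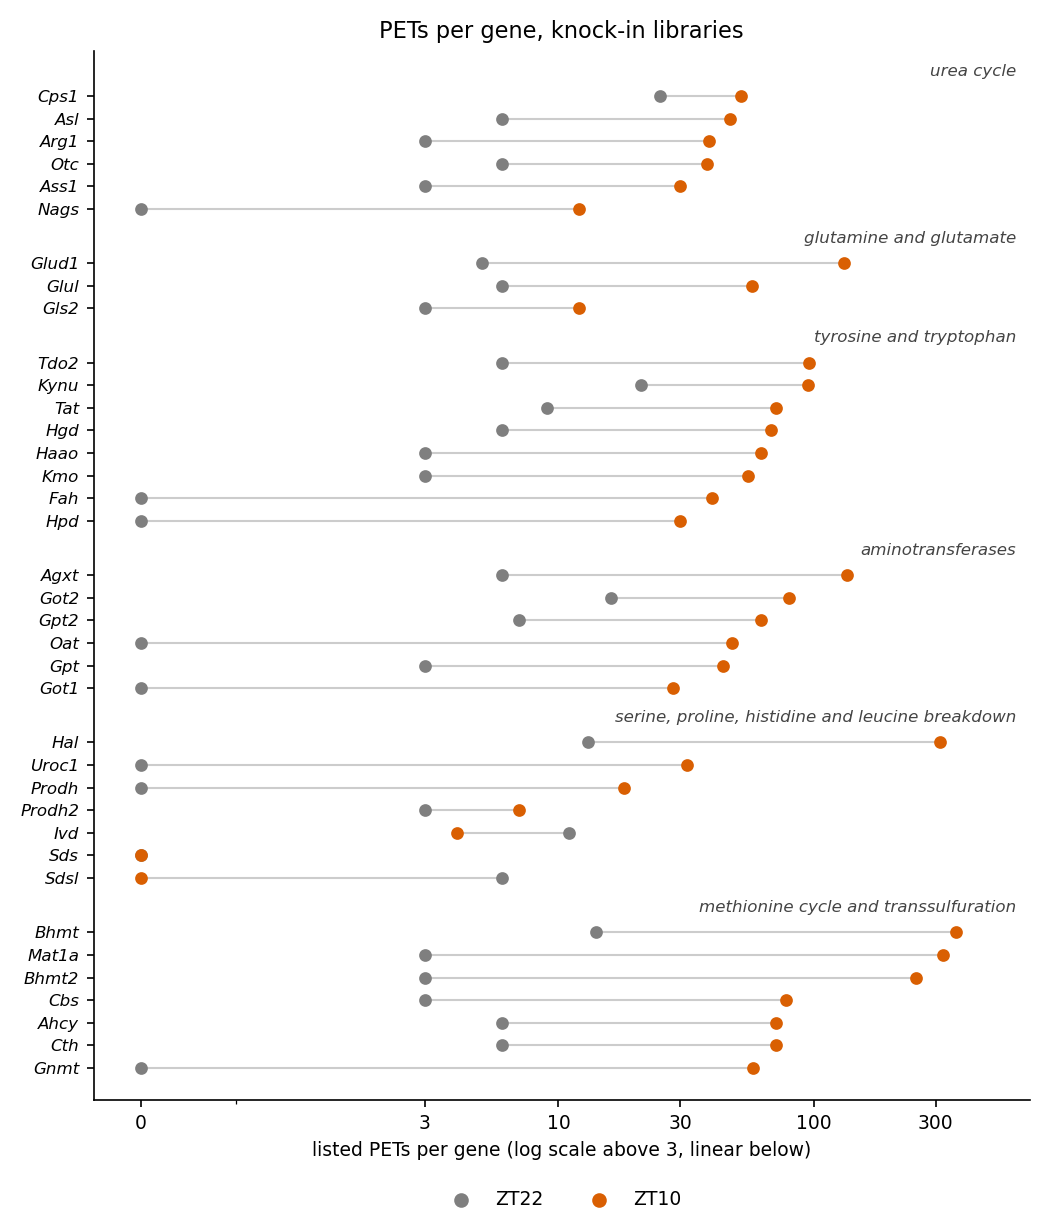
Listed PETs per gene in the ZT22 (grey) and ZT10 (orange) knock-in libraries for the 37 genes by role, on an axis that is logarithmic above 3 PETs and linear below, without scaling for the totals of 132709 and 320427 PETs. Bhmt reaches 360 PETs at ZT10, and Ivd and Sdsl are the genes with fewer PETs at ZT10 than at ZT22.

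Per kb of window, so that genes of different length can be compared, the ZT10 level was 11.7 PETs for Bhmt, 10.8 for Mat1a, 8.86 for Bhmt2, 8.19 for Hal and 6.69 for Agxt. Gnmt followed with 4.28, Tdo2 with 3.51 and Gpt with 3.40. These are levels of the windows: all 58 Gnmt, 96 Tdo2 and 44 Gpt PETs also counted for other genes. Of these, 53 were shared with Cnpy3, 87 with Asic5 and 40 with Kifc2, in that order. For Agxt 36 of 135 PETs were shared. Gnmt had 0 PETs within 2 kb of its 5′ end. The long genes Kynu and Cps1 had 0.689 and 0.438. The PET intervals of Bhmt (324 to 399) and Mat1a (285 to 356) overlapped over windows of 30.9 and 29.4 kb, so their order is not settled by counting error alone.

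Member loops at ZT10 were short and strong beside those of the whole library. Their median span was 26.1 kb against 40.1 kb over all loops, 2.32% spanned over 2 Mb against 8.33%, and 89.4% spanned under 100 kb against 72.8%. They held 7.20 PETs each on average, against 5.54. At ZT22 the member loops held 3.26 PETs each, against 3.27 over all loops, and 37.1% of them spanned over 2 Mb, against 39.0%. In the 4 AAV libraries 29.4% to 51.4% of member loops spanned over 2 Mb, against 38.8% to 44.2% of all loops. Loops of 1 library share their source, so these shares are given without a test.

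Most PETs at ZT10 ran from a gene end to a place outside the gene: 66.1% of PETs in gene and loop pairs lay in such loops, at 31 genes. Loops joining a gene's own ends numbered 19, with 133 PETs at 11 genes, and no other library listed such a loop at a member. Of the 27 members with a known strand, 20 had more PETs within 2 kb of the 5′ end than of the 3′ end, 6 had more at the 3′ end and 1 had equal numbers. The 6 were Glud1, Hal, Bhmt2, Tat, Gpt2 and Gnmt, named here after their values were seen. PETs at each end were not compared over all genes, so these counts do not set the members apart. The start itself lay under a ZT10 anchor for 19 of 22 members with at least 30 PETs (86.4%), against 63.6% of 2084 genes with at least 30. The sets share this minimum only and were not matched for PET number, so these shares are a description. Both anchors lay in the window of a protein-coding gene, the same gene or different ones, in 77.3% of member loops (95% Wilson interval 72.9% to 81.2%), against 66.7% of all ZT10 loops that touch a gene. This interval treats loops as independent, although loops share anchors and genes, so the difference is a description only. Merging the anchors of member loops gave 336 places, of which 187 had a single loop, 35 had at least 5 and 9 had at least 10.

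The knock-in libraries address how loops at REV-ERBα differ between a time near its peak and a time near its trough. Since each time had 1 library, there is no replicate check and no p-value, and the comparison is of these libraries. The set's share of listed PETs was 5.73-fold higher at ZT10 than at ZT22 (95% interval 4.96 to 6.64, counting error only), a log2 ratio of 2.51. Of the 36 members with a PET in either library, 30 had a share at least 2-fold higher at ZT10, as had 30.8% of 15902 genes, and 2, Ivd and Sdsl, had one at least 2-fold higher at ZT22, as had 53.7%. With genes unlisted in one library set to 3 PETs there in place of the pseudocount of 0.5, 29 members and 16.6% of genes were at least 2-fold higher at ZT10, and 2 members and 60.6% of genes at ZT22. Among members with at least 30 PETs over both libraries, 27 of 29 were at least 2-fold higher at ZT10, where 56% of 3720 genes were, and none was at least 2-fold higher at ZT22, where 23% were. Kynu and Cps1 were the remaining members of the 29. No member had 30 PETs at ZT22 alone, so all 29 reached the minimum through their ZT10 PETs. That largely set the direction of every count and median over the 29, which are given as descriptions only.

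For these same 29 members, selected through ZT10, the median log2 ratio was 2.62, and it was 1.40 over the 3720 genes, or 2.22 and 1.40 with unlisted genes set to 3 PETs. Without the minimum of 30 PETs it was 2.51 over the 36 members and -1.27 over the 15902 genes with a PET in either library. Because the median gene of the 3720 lay at 1.40, ratios were also read relative to that gene. On that scale 15 of the 29 members were at least 2-fold higher at ZT10 (32.2% of genes), 1, Cps1, was at least 2-fold higher at ZT22 (35.7% of genes), and 25 lay above the median gene. The 4 below it were Cps1 (-1.63), Kynu (-0.52), Got2 (-0.38) and Otc (-0.10). The median-gene scale does not undo the selection through ZT10. Over all genes, 70.9% of calls were higher at ZT10 by share of listed PETs and 47.4% relative to the median gene.

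**Figure D4:**
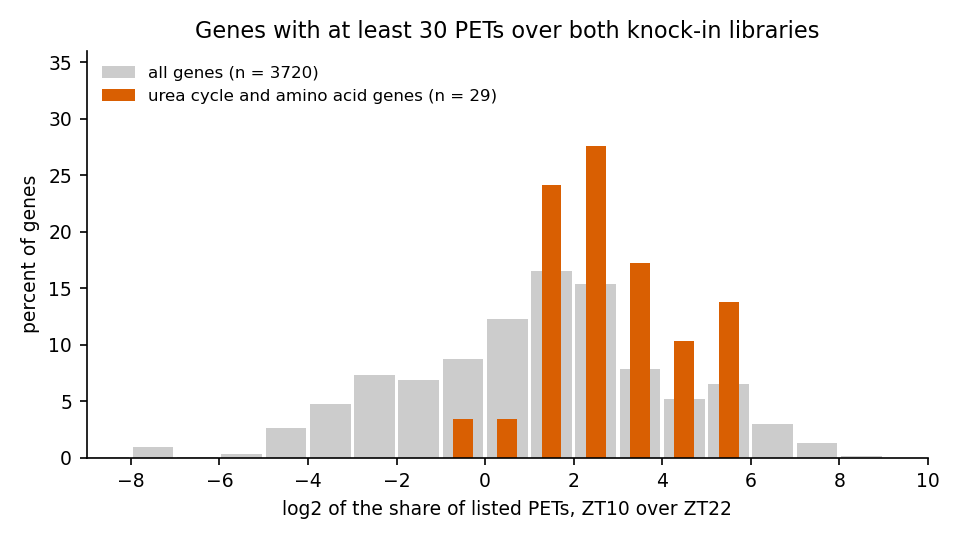
Percent of genes by log2 ratio of the share of listed PETs, ZT10 over ZT22, for 3720 genes with at least 30 PETs over both knock-in libraries (grey) and the 29 members among them (orange), in bins 1 unit wide. The members' median is 2.62 and that of all genes 1.40, and all 29 members passed the minimum through their ZT10 PETs.

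Other measures moved with the same contrast. Of the loops at members, 17.7% at ZT22 and 85.6% at ZT10 had both anchors at least 700 bp wide, and with only such loops the log2 ratio of the set was 2.05. PETs at 6 hepatocyte marker genes summed to 28 at ZT22 (4 genes with PETs) and 570 at ZT10 (5 genes), with Serpina1a at 0 in both libraries. Those at 6 Kupffer cell markers summed to 33 (4 genes) and 3 (1 gene), with Cd5l at 0 in both, and those at 5 endothelial markers to 28 (3 genes) and 116 (4 genes), with Kdr at 0 in both. Summed PETs at ZT22 and ZT10 were 70 and 17 for 5 stellate markers, 15 and 32 for 4 cholangiocyte markers, and 15 and 29 for 4 lymphoid markers. The part of anchor width, library and cell make-up in the result was not tested. In bulk liver a different number of cells of one type and different looping per cell cannot be told apart.

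The AAV libraries address whether the hIDR region of REV-ERBα bears on these loops. The set's share of listed PETs was 0.102% ± 0.00878 (SD, n = 2) with WT and 0.0987% ± 0.0269 (SD, n = 2) with delhIDR, and the groups overlapped. With 2 libraries a group no sum over the members was tested. By edgeR's quasi-likelihood test over 4753 genes, 1 gene passed an adjusted p of 0.05, or 0.021%, and it was no member. Only Cth, Hal and Kynu among the members had enough PETs to be tested, and 0 of these 3 passed, 0 had an unadjusted p under 0.05, and 0 passed in DESeq2. The log2 difference, WT minus delhIDR, was 0.63 ± 1.91 (SE) for Cth, 0.06 ± 0.79 for Hal and -0.24 ± 0.70 for Kynu, each with an edgeR adjusted p of 1.00. The sign of the Cth difference turned without WT replicate 1 (-1.16) and without delhIDR replicate 2 (-0.38). That of Hal turned without WT replicate 1 (-0.046), without delhIDR replicate 1 (-0.20) and with a window of 25 kb (-0.29). That of Kynu turned without WT replicate 1 (0.054).

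How large a change between WT and delhIDR could be called in lists without loops under 3 PETs was not tested. Genes that failed the filter could not be called. Both WT libraries lay above both delhIDR libraries, in share of listed PETs, for 7 of 35 members with a PET in any of the 4, where 12% of 18942 genes did. Both delhIDR libraries lay above both WT libraries for 5 of 35, where 14.5% of genes did. By share, higher in WT were Cps1, with 6 and 25 PETs against 6 and 6, Sdsl with 6 and 8 against 0 and 0, Gls2 with 7 and 7 against 3 and 0, Gpt2 with 6 and 11 against 6 and 0, Uroc1 with 3 and 6 against 0 and 0, and also Haao and Sds. By share, higher in delhIDR were Kynu, with 17 and 16 PETs against 7 and 19 (9.53 and 9.96 against 6.72 and 9.31 per 100000 listed PETs), Got2 with 18 and 6 against 0 and 0, Asl with 10 and 10 against 0 and 0, Bhmt with 14 and 9 against 4 and 8, and Fah with 6 and 3 against 0 and 3. All of these counts were under 30 PETs, and the 12 genes came from several role groups in each direction.

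**Figure D5:**
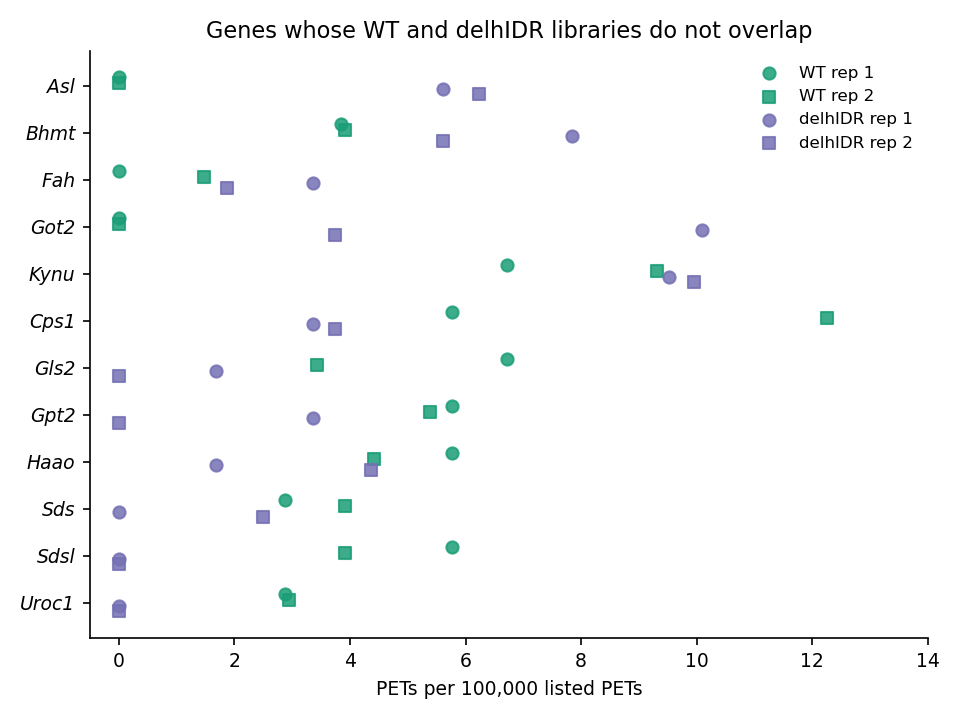
PETs per 100000 listed PETs in each WT (green) and delhIDR (purple) library for the 12 members whose groups do not overlap, with circles for replicate 1 and squares for replicate 2, offset vertically within a gene. Asl and Got2 are at 0 in both WT libraries, and Sdsl and Uroc1 at 0 in both delhIDR libraries.

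The leading members of the ZT10 knock-in library were low in the WT libraries at the same ZT. Bhmt, Mat1a, Hal, Bhmt2 and Agxt had 360, 319, 311, 250 and 135 PETs in the knock-in, and 0 to 13 PETs in each WT library. These libraries differ in genotype, virus and source of the tagged protein as well as in the library properties given above, and the part of each in the difference was not tested.

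A loop was taken as listed in another library where each of its anchors shared 1 bp or more with the anchors of a loop there. Of the 388 member loops at ZT10, 9 were matched at ZT22, or 2.32% (95% Wilson interval 1.23% to 4.35%), against 0.969% of all ZT10 loops. Read from ZT22, 9 of 62 member loops (14.5%, 7.83% to 25.3%) were matched at ZT10, against 1.29% of all ZT22 loops. Members were chosen with earlier results known and lie where ZT10 loops are many, which raises the share that can match. The intervals treat loops as independent, although loops share anchors and genes, so these shares are a description only. The 9 lay at Cps1, Kynu, Gpt2, Got2, Hal (2 loops), Bhmt with Bhmt2, Glud1 and Hgd, with 8 to 76 PETs at ZT10 and 3 to 5 at ZT22. Glud1's strongest loop was among them, with 73 PETs at ZT10 and 5 at ZT22, as was the loop between Bhmt and Bhmt2, with 76 and 3, and the strongest at Gpt2, from chr8:85477160-85479840 to chr8:85486898-85490289, with 35 and 3. In the AAV libraries, WT replicate 1 matched 1 member loop of the ZT10 knock-in, at Haao, and WT replicate 2 matched 1, at Otc. The delhIDR replicate 1 library matched 3, at Asl, Gpt2 and Mat1a, and replicate 2 matched 4, at Tat, Nags and Mat1a (2 loops). In the order WT replicates 1 and 2 and delhIDR replicates 1 and 2, these were 0.258%, 0.258%, 0.773% and 1.03% of the member loops, against 0.297%, 0.358%, 0.619% and 0.266% of all ZT10 loops. The strongest Mat1a loop, of 82 PETs, was one of these, with 4 PETs in delhIDR replicate 2. No member loop was matched between any of the 4 AAV libraries, including replicates of the same construct. Over all loops 0.0271% to 0.126% were matched between these libraries, so with 34 to 62 member loops in each the 0 says nothing about the members.

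A further list of 61 genes of the same pathways, such as amino acid transporters and enzymes of branched-chain amino acids, glycine and lysine, was counted in the same way. At ZT10 in the knock-in 52 of the 61 had a listed PET, against 52.1% of all protein-coding genes. Their median was 15 PETs per gene, against 3 over all genes. Of the 24 with at least 30 PETs over both knock-in libraries, 20 had a share at least 2-fold higher at ZT10 (56% of all genes) and 0 one at least 2-fold higher at ZT22 (23%), and their median log2 ratio was 2.41. Of these 24, Aass and Pcca alone had 30 PETs at ZT22, so these counts too were largely set by the ZT10 library and are a description. Aass, the first enzyme of lysine breakdown, had 516 PETs at ZT10 and 36 at ZT22, more than any of the 37 members. Auh, of leucine breakdown, had 299 and 10, and Amdhd1, the neighbour of Hal described above, 267 and 10.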

How the data were processed

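Each of the 6 deposited files lists, for 1 anti-HA library, pairs of anchor intervals and the raw count of PETs joining them (column 7). The authors' counts are not normalized and not pooled, and the submitters' processing notes name mm10. For the aligner, the duplicate filter and the loop caller, details are not given in the sources used here. The lowest listed count is 3, so the sum of listed PETs (104161 to 320427 per library) is not the sequencing depth. Coordinates are printed as the files give them, with the base of counting not stated. Samples pulled down with anti-CTCF (2) were not analysed here. Sample titles gave the groups and the replicate numbers. The labels do not say that replicates are separate animals, so p-values measure only how far these libraries spread, and that spread may be technical.

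PETs were summed per protein-coding gene of RefSeq GRCm38.p6 (gene body plus 5 kb), each loop once per gene and once for the set. The members and gene lists were chosen with earlier results of these data known. Shares carry exact Clopper-Pearson and PETs exact Poisson intervals at 95%, covering counting error only. Log2 ratios use a pseudocount of 0.5 PETs. Knock-in ratios were counted as called at 2-fold or more, for genes whose PETs in both libraries summed to 30 or more. WT and delhIDR were compared with edgeR 4.0.16 (R 4.3.3; quasi-likelihood test, TMM, filterByExpr, Benjamini-Hochberg over all tested genes at 0.05), with SE taken as the size of the log2 difference over the square root of F. The edgeR step was tested on simulated data: with 10 times the PETs and dispersion 0.05, 96.5% of 4-fold and 100% of 8-fold changes were called. Those called shares hold for these settings only and not for the depth of the libraries used here. Counting used Python 3.11.15 and pandas 2.3.3.

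Named genes were the 10 members with most ZT10 PETs and any member called against the majority, up to 5 members per direction whose WT and delhIDR libraries did not overlap, and the 3 other pathway genes with most ZT10 PETs. Named loops were the strongest of the 10 leading members and every member loop listed in more than 1 library. Other members are given as values, and other loops were chosen after their values were seen. Promoters came from RefSeq for 27 members and were not used here for Kynu, Sdsl, Gpt, Cth, Sds, Gls2, Cps1, Asl, Mat1a and Arg1. Alternatives covered the window, the loop minimum (4 PETs), anchor width (700 bp), span (2 Mb), the scale, the call minimum (15 PETs) and fold (4), DESeq2 1.42.0, no TMM, no filter, a replicate block and leaving out each library. Counting every gene with any PET in a knock-in library, and setting unlisted genes to 3 PETs, were alternatives chosen after seeing the data.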

Additional observations from a re-analysis of the deposited data

How the results depend on the processing

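The set's log2 share ratio of ZT10 over ZT22, 2.51, stayed above 0 under all 7 alternatives run: 2.26 with 25 kb around the gene, 3.16 with 5 kb around each gene end only, 2.05 where both anchors had to reach 700 bp (wide anchors), and 1.12 with the median gene as the scale. That scale also took the members called higher at ZT10 from 27 to 15. Among single members, Kynu turned to -0.049 with loops of at least 4 PETs, -0.69 with wide anchors and -0.52 on the median-gene scale, Got2 and Otc turned to -0.38 and -0.10 on that scale, and Cps1 turned to 1.67 with 25 kb and 1.66 with gene ends only, and was -1.21 with the gene body alone. With wide anchors Glud1 fell from 3.31 to 0.47 and Got2 from 1.01 to 0.32, without a change of sign. With the gene body alone Got2 fell to 0.84, and Glud1 was 4.15 on 21 PETs at ZT10 and 0 at ZT22. Kynu rose to 2.92 with gene ends only. The cause of these turns and shifts was not tested. The set's WT over delhIDR log2 ratio, 0.05, became 0.45 with loops of at least 4 PETs and -1.37 with wide anchors (9 PETs in each group), and ranged from -0.20 to 0.36 with each library left out, the highest without delhIDR replicate 1. In the edgeR comparison of WT with delhIDR, 1 gene was called. The number was 3 without a filter, 3 with 25 kb, 0 with gene ends only (372 genes tested, 19 at an unadjusted p under 0.05), 0 with wide anchors (5 genes tested, 0 at an unadjusted p under 0.05) and 2 to 6 with each library left out. DESeq2 called 1. With the replicate number as a block 3 genes were called, and the block changed no member's call. The labels do not tie same-numbered libraries together, and their deviations had a correlation of 0.00818. Members called in that comparison were 0 by edgeR and DESeq2 in every alternative that kept all 4 libraries and tested any. Gene ends only and wide anchors tested none. At most 4 members of 35 had an unadjusted p under 0.05, in the unfiltered edgeR fit, where 528 of 18942 genes did. These 4, Asl, Got2, Hpd and Sdsl, had no listed PET in both libraries of 1 group. With each library left out, the log2 difference of WT minus delhIDR ranged from -1.16 to 1.45 for Cth, from -0.20 to 0.42 for Hal and from -0.57 to 0.054 for Kynu, and it was -0.29 for Hal with 25 kb. No library lists loops below 3 PETs, so absence of a loop is not shown by these files.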
